A study of Mus musculus with 2 samples.

Results

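The genes described here encode the Fc receptors for IgE and IgG, proteins that bind the constant (Fc) end of antibodies and carry the signal into the cell. All genes whose symbol was on a list of 8 were taken, whatever their values, and all 8 were found among the 23284 gene symbols of the data. RNA was measured in stem cells of a murine leukemia (leukemic stem cells, LSCs) driven by the fusion kinase BCR-ABL, a model of human chronic myeloid leukemia (CML). WT LSCs were compared with LSCs that arose from donor cells without STAP-1, an adaptor protein of tyrosine kinase signaling, to learn which transcripts differ in its absence. A single library of each genotype was analysed here, so no difference could be set against the spread between mice and no test was possible.

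Both libraries came from the C57BL/6J strain and from cells that carried human BCR-ABL, introduced by a murine stem cell virus vector that also encodes GFP. Donor LSK cells (lineage-negative, Sca-1+ and c-Kit+) were transduced and given, with helper bone marrow, to lethally irradiated recipients of the congenic C57BL/6SJL strain (Ly5.1). GFP+ CD45.2+ LSK cells were sorted at day 11 after this first transplantation. The WT group had an intact Stap1 gene, and the STAP-1 KO group carried a targeted disruption of Stap1 in every cell of the donor animal. Mice of 8 to 14 weeks of age were used, and the labels do not say how many mice gave the cells of a library.

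The high-affinity IgE receptor FcεRI is a complex of an α chain (Fcer1a) that binds IgE, a β chain (Ms4a2) that amplifies the signal, and a dimer of γ chains (Fcer1g) that signals through ITAMs, tyrosine motifs that recruit the kinase Syk. Mast cells and basophils are the cells best known for this receptor, which triggers their degranulation when an allergen crosslinks the bound IgE. The activating IgG receptors of the mouse, FcγRI (Fcgr1), FcγRIII (Fcgr3) and FcγRIV (Fcgr4), use the same γ chain, whereas FcγRIIB (Fcgr2b) carries an inhibitory motif (ITIM) of its own that recruits the phosphatase SHIP-1. CD23 (Fcer2a), the low-affinity IgE receptor, is a lectin of B cells and shares no chain with the others.

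Values are FPKM, fragments counted per length of transcript and per depth of the library, so that genes of different length can be compared in level. Stap1 itself stood at 62.0 FPKM in WT and at 0.309 FPKM in STAP-1 KO CML LSCs. The steps between the lowest FPKM values put the depth at about 7500000 reads for WT and 10470000 reads for STAP-1 KO, and 39.3% and 38.6% of all genes were listed at 0. Of the markers of the sort, Kit was at 468 and 30.1 FPKM and Ly6a, which encodes Sca-1, at 284.7 and 105.6 FPKM. The libraries also differed in sex-linked genes. Xist stood at 0 and 0.849 FPKM, and the Y-linked genes Ddx3y (33.9 and 18.6 FPKM), Eif2s3y (69.3 and 44.9 FPKM), Kdm5d (4.92 and 2.29 FPKM) and Uty (12.6 and 4.95 FPKM) all had the lower value in STAP-1 KO. The 10 mast cell markers examined summed to 47494 FPKM in WT and 4400 FPKM in STAP-1 KO, although both libraries were labelled as LSK cells. In bulk RNA, fewer cells of a type and less RNA per cell cannot be told apart.

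All 3 chains of FcεRI were among the more abundant transcripts of WT CML LSCs, and each was more than 4-fold lower in STAP-1 KO CML LSCs. Fcer1a stood at 1828 FPKM in WT, the 22nd highest of all genes, and at 218 FPKM in STAP-1 KO, where it was 476th. That is an 8.39-fold lower level, or a log2 ratio of -3.07 with a counting interval of -3.15 to -2.99. Ms4a2 stood at 163 FPKM in WT and 18.0 FPKM in STAP-1 KO, a 9.05-fold lower level with a log2 ratio of -3.17 (counting interval, -3.53 to -2.84). The binding chain and the amplifying chain thus differed by similar folds although their levels were about 11.2-fold apart in WT.

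Fcer1g stood at 1472 FPKM in WT and at 354 FPKM in STAP-1 KO CML LSCs, where it was the most abundant of the 8 transcripts. Its level was 4.15-fold lower, with a log2 ratio of -2.05 (counting interval, -2.13 to -1.98). Here and below, log2 ratios of single genes are log2((STAP-1 KO + 0.1)/(WT + 0.1)) of FPKM, whereas log2 changes of ratios between chains carry no pseudocount. The 95% intervals carry none either and cover only the counting of reads, estimated from FPKM, depth and transcript length. These intervals hold nothing of the variation between mice. The intervals of these chains are narrow because about 8428 and 1414 reads stood behind Fcer1a, 5108 and 1736 behind Fcer1g, and 532 and 83.0 behind Ms4a2.

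Fcer1a lies at chr1:173221284-173227214 and Ms4a2 at chr19:11615523-11623719, both on the minus strand of GRCm38, the mm10 assembly used for the alignment. Because these chains on different chromosomes were lower together, the 250 bases before the RefSeq start of each are shown, 5′ to 3′ along the gene. Both windows were free of annotated exons (Fcer1a, chr1:173227230-173227479, and Ms4a2, chr19:11623720-11623969, GRCm38.p6, minus strand). Capitals mark matches to AGATAA or TGATAA, letters recognised by GATA factors, on either strand (TTATCT is AGATAA read on the other strand).
Fcer1a: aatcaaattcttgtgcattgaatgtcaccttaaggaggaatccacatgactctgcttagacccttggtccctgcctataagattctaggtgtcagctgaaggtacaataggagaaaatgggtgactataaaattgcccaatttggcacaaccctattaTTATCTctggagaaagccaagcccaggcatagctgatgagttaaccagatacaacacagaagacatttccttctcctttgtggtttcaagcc
Ms4a2: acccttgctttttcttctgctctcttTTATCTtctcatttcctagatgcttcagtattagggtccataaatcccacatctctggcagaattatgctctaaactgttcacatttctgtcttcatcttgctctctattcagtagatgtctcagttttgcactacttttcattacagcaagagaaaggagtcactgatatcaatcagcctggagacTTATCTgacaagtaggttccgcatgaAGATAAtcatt
The Fcer1a window held 1 match, with its first base 92 bases before the start. The Ms4a2 window held 3 matches, at 224, 37 and 11 bases before the start. Of 32536 distinct RefSeq promoter windows of this length, 16.5% held at least 1 such match, and the windows of the other 6 members held 0. Some of those windows overlap annotated exons, by 203 of 250 bases for Fcgr2b, 27 for Fcgr3, 16 for Fcer1g, 6 for Fcgr4 and at most 1 for Fcer2a. GAGGAA, letters recognised by ETS factors such as PU.1, occurred once in the Fcer1a window and in 23.4% of all windows, and CACATG, recognised by MITF, occurred once there and in 12.3% of all windows. The Ms4a2 window held neither of these, and GAGGAA alone was also found before Fcgr1, Fcgr3 and Fcgr4. These are matches of letters only, and no binding was measured.

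**Figure D1:**
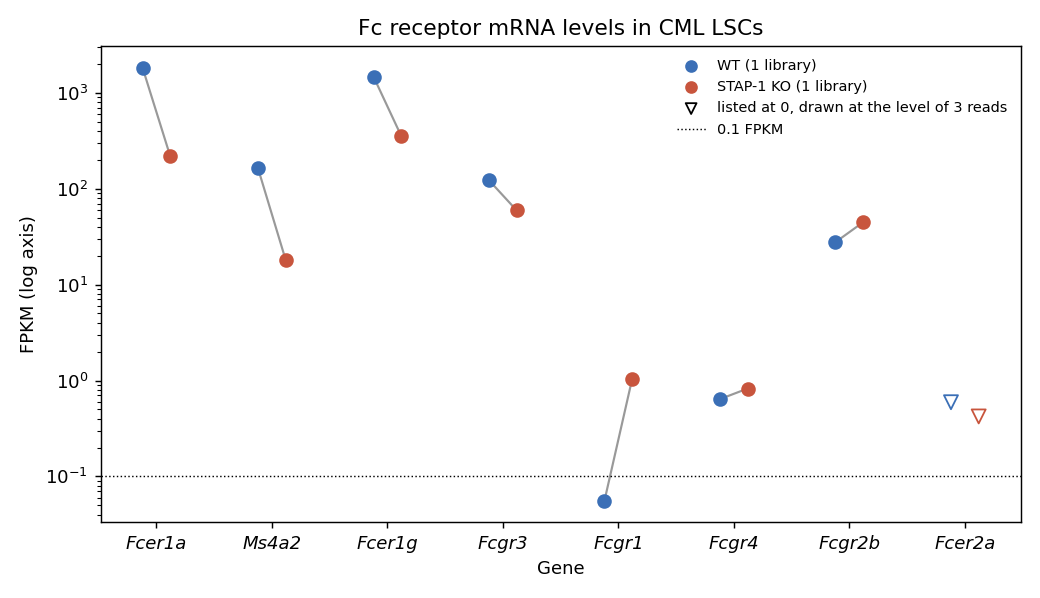
Level of each member in WT and STAP-1 KO CML LSCs, in FPKM on a log axis, with 1 point per library and a line joining the 2 libraries of a gene. Fcer1a, Ms4a2, Fcer1g and Fcgr3 were lower in STAP-1 KO, Fcgr2b, Fcgr4 and Fcgr1 had the higher value there, and the open triangles put Fcer2a, listed at 0, at the level of 3 reads; the dotted line is the floor of 0.1 FPKM.

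The α chain and the β chain kept a similar proportion in both genotypes, whereas the γ chain did not follow them. The ratio of Ms4a2 to Fcer1a was 0.0891 in WT and 0.0825 in STAP-1 KO, a log2 change of -0.11 with a counting interval of -0.45 to 0.23 that includes 0. The ratio of Fcer1g to Fcer1a was 0.805 in WT and 1.63 in STAP-1 KO, a log2 change of 1.01 (counting interval, 0.90 to 1.13). In WT the α chain was therefore the more abundant of the pair, and in STAP-1 KO the γ chain was. The ratio of Fcer1g to Ms4a2 was 9.04 and 19.7, a log2 change of 1.12 (counting interval, 0.78 to 1.47). A ratio of genes within a library is free of the scaling between libraries, but its change still rests on 1 library a genotype.

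The γ chain serves the activating IgG receptors as well as FcεRI, so its level was also set against all 4 binding chains that pair with it (Fcer1a, Fcgr1, Fcgr3 and Fcgr4), a ratio added after the values were seen. Together these 4 chains stood at 1951 FPKM in WT and 279 FPKM in STAP-1 KO. Fcer1g amounted to 0.754 times their sum in WT and 1.27 times in STAP-1 KO, a log2 change of 0.75 (counting interval, 0.64 to 0.86). Against the 3 activating IgG chains alone, the direction was the other way. Fcer1g was 11.98 times their sum in WT and 5.80 times in STAP-1 KO, a log2 change of -1.05 (counting interval, -1.31 to -0.79). The γ chain thus differed between genotypes by a fold that lay between those of the IgE and the IgG binding chains.

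Among the activating IgG receptors, Fcgr3 was the only one above 2 FPKM in either library. Fcgr3, the low-affinity IgG receptor FcγRIII, stood at 122 FPKM in WT and 59.2 FPKM in STAP-1 KO. Its level was 2.06-fold lower, with a log2 ratio of -1.04 whose counting interval of -1.31 to -0.79 lies on both sides of a 2-fold difference. Scaling the libraries to the same upper quartile moved the log2 ratio to -0.99, which is just short of 2-fold.

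Fcgr4, which encodes FcγRIV, an activating receptor known from neutrophils and monocytes, stood at 0.640 FPKM in WT and 0.825 FPKM in STAP-1 KO, or about 5.01 and 9.07 reads. Its log2 ratio of 0.32 had a counting interval of -1.37 to 2.29, so that no difference was detectable at this depth. Fcgr1, the high-affinity IgG receptor FcγRI, stood at 0.0560 FPKM in WT, which is about 1 read, and at 1.04 FPKM in STAP-1 KO, which is about 26.0 reads. The ratio of 18.6 had a counting interval of 3.05 to 762. Since its WT value was below 0.1 FPKM, the floor set for a comparison, Fcgr1 was not counted among the genes compared.

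Fcgr2b, the inhibitory member, was the only one with more than 1.5 FPKM and the higher value in STAP-1 KO CML LSCs. Its level was 27.7 FPKM in WT and 44.7 FPKM in STAP-1 KO, a 1.61-fold higher value that did not reach 2-fold. The log2 ratio was 0.69, with a counting interval of 0.44 to 0.95 from about 181 and 411 reads. Its place among all genes ordered by level went from 3909th in WT to 2710th in STAP-1 KO. Fcer2a, encoding CD23, was listed at 0 FPKM in both libraries, where 3 reads would have given 0.594 and 0.422 FPKM. Of 7 B cell markers, 3 were also listed at 0 in both, whereas Cd79b, a signaling chain of the B cell receptor, stood at 3.10 and 17.8 FPKM.

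The 4 genes of the IgG receptors and Fcer1g stand on chromosomes 1 and 3. On GRCm38, Fcgr2b lies at chr1:170958617-170976547 (minus strand), Fcgr4 at chr1:171018920-171029761 (plus strand), Fcgr3 at chr1:171051174-171064935 (minus strand), Fcer1g at chr1:171229572-171234365 (minus strand) and Fcgr1 at chr3:96282909-96293969 (minus strand). Fcer2a lies at chr8:3681737-3694175 (minus strand). Fcgr2b and Fcgr3, the neighbours whose ratios went in opposite directions, share stretches of sequence. Of all 75-base windows, the length of a read, 9.31% of the Fcgr2b transcript used to estimate its reads also occurred in Fcgr3. Over the coding transcripts of Fcgr2b, 6.77% to 11.7% of the windows occurred in another gene, and over those of Fcgr3, 0% to 7.52% occurred in Fcgr2b. How such reads were divided is uncertain. Summed, the pair stood at 149.9 FPKM in WT and 104.0 FPKM in STAP-1 KO, which is 1.44-fold lower. Fcgr2b also overlaps the antisense gene Gm38204, whose reads cannot be told apart in a library without strand.

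The activating chains outweighed the inhibitory chain in both genotypes, by a smaller margin in STAP-1 KO CML LSCs. Fcgr1, Fcgr3 and Fcgr4 together stood at 122.9 FPKM in WT and 61.1 FPKM in STAP-1 KO. Their ratio to Fcgr2b was 4.44 in WT and 1.37 in STAP-1 KO, a 3.25-fold lower ratio with a log2 change of -1.70 (counting interval, -2.05 to -1.35). Fcgr3 supplied nearly all of the activating sum, and the ratio of Fcgr3 to Fcgr2b alone was 4.41 and 1.32, a log2 change of -1.74 (counting interval, -2.09 to -1.38). Without Fcgr3 the direction turned. Fcgr1 and Fcgr4 amounted to 0.0251 of Fcgr2b in WT and 0.0418 in STAP-1 KO, a log2 change of 0.73 with a counting interval of -0.58 to 2.05, which rests on very few reads.

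**Figure D2:**
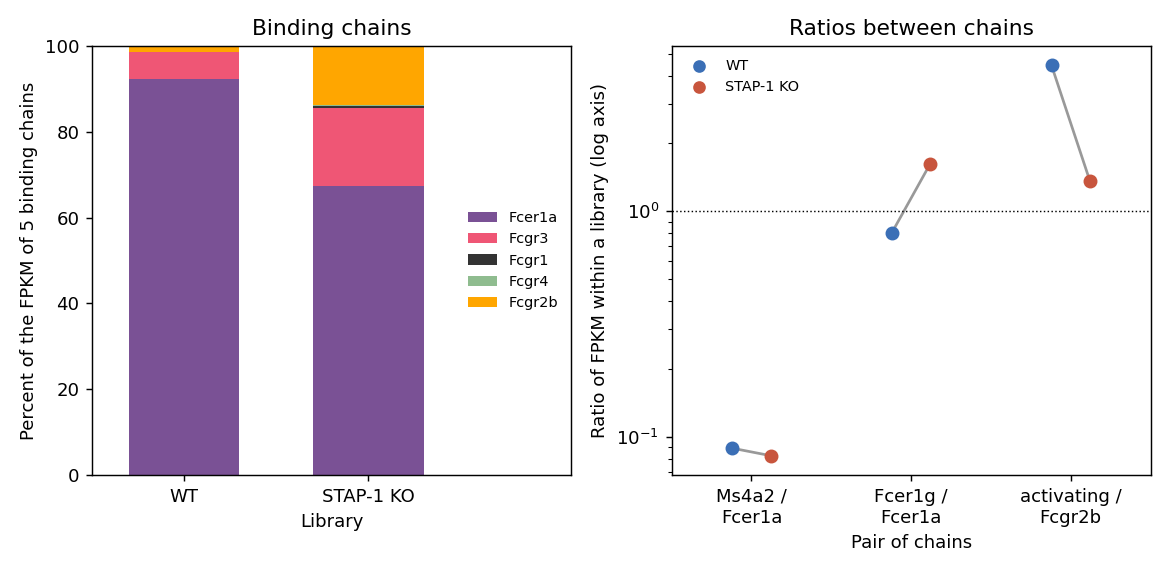
Left, share of each of the 5 antibody-binding chains in their summed FPKM, in percent, for each library; right, ratios between chains within a library, on a log axis, with a dotted line at equal levels. The share of Fcer1a was 92.4% in WT and 67.3% in STAP-1 KO, while Ms4a2 to Fcer1a stayed near the same level and the activating to inhibitory ratio came closer to 1 in STAP-1 KO.

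The make-up of the antibody-binding chains differed between genotypes, as the plot of their shares shows. The 5 binding chains (Fcer1a, Fcgr1, Fcgr2b, Fcgr3 and Fcgr4) summed to 1979 FPKM in WT and 324 FPKM in STAP-1 KO, a 6.11-fold lower level. Fcer1a made up 92.4% of this sum in WT and 67.3% in STAP-1 KO. Fcgr3 made up 6.18% and 18.3%, and Fcgr2b 1.40% and 13.8%. The IgE-binding chain was 12.1 times the sum of the IgG-binding chains in WT and 2.06 times in STAP-1 KO, a log2 change of -2.56 (counting interval, -2.76 to -2.36) in a ratio added after the values were seen. The 3 chains of FcεRI accounted for 0.533% of all FPKM in WT and 0.0977% in STAP-1 KO.

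Of the 8 members, 6 had at least 0.1 FPKM in both libraries and were compared, and 4 of these (Fcer1a, Ms4a2, Fcer1g and Fcgr3) were at least 2-fold lower in STAP-1 KO CML LSCs. Among all 12507 genes compared in this way, 22.9% were at least 2-fold lower. None of the 6 was at least 2-fold higher, against 12.3% of all genes, and Fcgr2b and Fcgr4 passed the cut-off in neither direction. Only 332 genes (2.65%) had a ratio as low as that of Fcer1a or lower, and 308 (2.46%) as low as that of Ms4a2. For Fcer1g this share was 8.10%, and for Fcgr3 it was 22%. A ratio as high as that of Fcgr2b or higher was found for 21.7% of the genes compared. The median log2 ratio of all genes compared was -0.05.

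**Figure D3:**
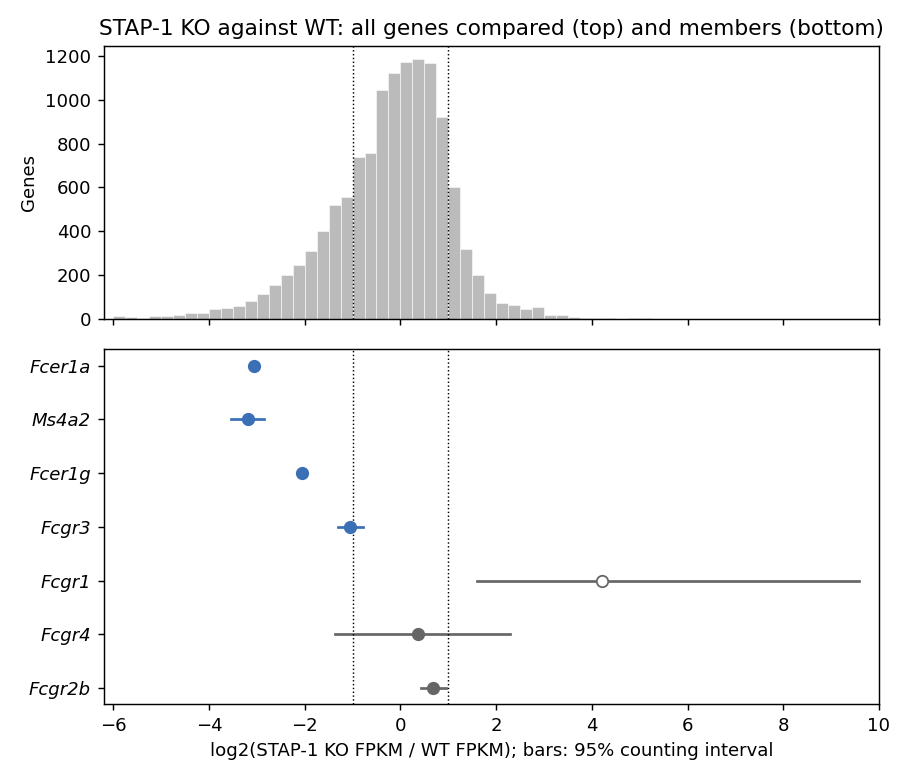
Top, number of genes by log2 ratio of STAP-1 KO to WT FPKM for the 12507 genes compared; bottom, the members with a value above 0 in both libraries, with bars for the 95% counting interval and no pseudocount. Fcer1a and Ms4a2 sit in the lower tail of all genes, Fcer1g and Fcgr3 less far out, and the open point of Fcgr1, below the floor in WT, has a wide bar; dotted lines mark 2-fold.

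Genes that carry the signal of these receptors were mostly lower as well. Of 25 genes of FcεRI and FcγR signaling, 24 had a mean of at least 1 FPKM, and 14 of these were at least 2-fold lower, 0 higher and 10 neither. The background for this cut-off was 22.4% lower and 11.5% higher among 10893 genes, and the median log2 ratio was -1.07 in the list and -0.04 over all genes of that level. Lyn, the Src family kinase that phosphorylates the receptor's tyrosine motifs, stood at 78.7 FPKM in WT and 38.4 FPKM in STAP-1 KO, 2.05-fold lower. Syk, the kinase that docks on the phosphorylated γ chain, stood at 27.1 and 14.02 FPKM, a log2 ratio of -0.95 that missed the cut-off and was -0.23 once ratios were corrected for GC content and transcript length.

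Log2 ratios in this list ranged from -3.93 to 0.71, and the 4 genes named for the ratio farthest from 0 were adaptors and enzymes that act inside the cell. Gab2, the adaptor of the complementary PI3K branch of mast cells, stood at 52.3 FPKM in WT and 3.66 FPKM in STAP-1 KO. Prkcb, a protein kinase C, stood at 80.3 and 5.16 FPKM, and Plcg1, a phospholipase C that releases calcium, at 34.2 and 4.02 FPKM. The membrane adaptor Lat2 stood at 503 and 99.4 FPKM. Each of these 4 was at least 5.06-fold lower, a larger fold than for Fcer1g.

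The brakes that act on these receptors inside the cell were lower or passed the cut-off in neither direction. Of 13 intracellular brakes, 6 were at least 2-fold lower, 0 higher and 7 neither, with a median log2 ratio of -0.83, or -0.28 with the same correction. Inpp5d, which encodes the SHIP-1 phosphatase recruited by FcγRIIB, stood at 112 FPKM in WT and 16.4 FPKM in STAP-1 KO. Its 6.84-fold lower level stood beside the higher value of Fcgr2b. Dok3, an adaptor that binds SHIP-1, stood at 59.9 and 12.1 FPKM, Sla, an adaptor that restrains receptor signals, at 157 and 59.3 FPKM, and Cblb, a ubiquitin ligase, at 6.98 and 1.69 FPKM. The log2 ratio of Sla was -1.41, and -0.68 with the correction, which is short of 2-fold.

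Most of the other inhibitory receptors with ITIMs that were abundant enough to compare were lower. Of 14 such receptors, 12 had a mean of at least 1 FPKM, and 7 were at least 2-fold lower, 1 higher and 4 neither, with a median log2 ratio of -1.55. Lilrb4, an inhibitory receptor of mast and myeloid cells, stood at 2391 FPKM in WT, above Fcer1a, and at 185 FPKM in STAP-1 KO. The paired receptor Lilrb3 stood at 90.5 and 7.01 FPKM, Cd200r1 at 223 and 19.5 FPKM, and Cd33, a sialic acid-binding lectin, at 31.1 and 2.01 FPKM. The 1 that was higher, named after its values were seen, was Clec12a, a lectin of myeloid cells, at 14.2 and 52.7 FPKM. The 14 receptors summed to 2941 FPKM in WT and 345 FPKM in STAP-1 KO, and Lilrb4 alone, at 2391 and 185 FPKM, made up most of both sums.

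Receptors other than Fc receptors that use the γ chain were split. Of 10 such genes, 4 had a mean of at least 1 FPKM, 2 of them lower and 2 higher. Clec4e, encoding the glycolipid receptor Mincle, stood at 7.10 FPKM in WT and 52.3 FPKM in STAP-1 KO, and its relative Clec4d at 2.25 and 8.55 FPKM. Clec4n, encoding Dectin-2, stood at 10.5 and 0.864 FPKM, and Lilra6 at 15.0 and 2.07 FPKM. Tyrobp, which encodes DAP12, an ITAM adaptor of many other myeloid receptors, stood at 992 and 238 FPKM. Its 4.17-fold lower level lay beside the 4.15-fold of Fcer1g.

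**Figure D4:**
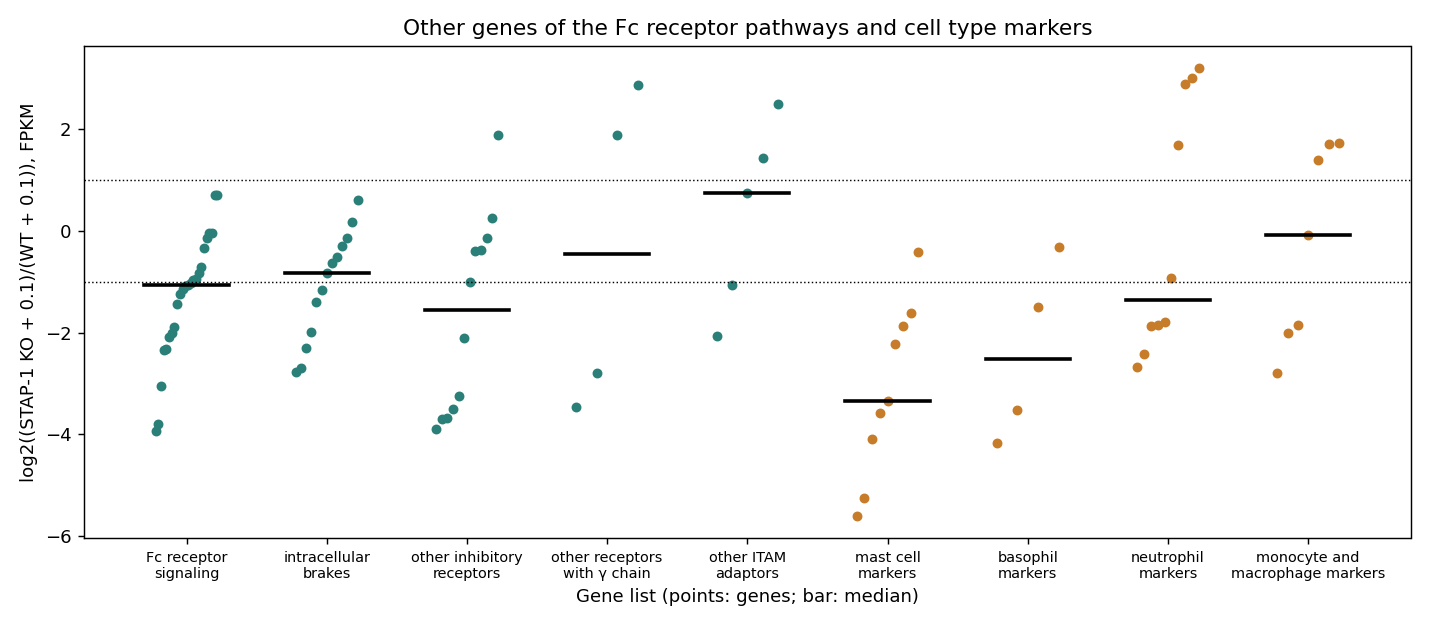
Log2 ratio of STAP-1 KO to WT, log2((KO + 0.1)/(WT + 0.1)) of FPKM, for the genes of 9 lists whose mean was 1 FPKM or more; each point is a gene, black bars are medians and dotted lines mark 2-fold. Mast cell markers had the lowest median (-3.34), signaling genes had a median of -1.07, and the other γ-chain partners and the neutrophil markers had points on both sides.

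Most markers of mast cells and basophils were lower together with the FcεRI chains. This was not particular to them, since all 4 dendritic cell markers compared were lower, and of 5 erythroid markers 2 were lower and 0 higher. Markers of the remaining cell types went in several directions. The part of any cell type in the differences was not tested. Of 10 mast cell markers, 9 had a mean of at least 1 FPKM, and 8 of these were at least 2-fold lower, 0 higher and 1 neither, with log2 ratios from -5.60 to -0.41 and a median of -3.34. The chymase Cma1 stood at 13924 FPKM in WT and 1168 FPKM in STAP-1 KO, and Hdc, the enzyme that makes histamine, at 5629 and 330.2 FPKM. The tryptases Tpsb2 and Tpsab1 stood at 7016 and 185 FPKM and at 430 and 8.74 FPKM. The 10.8-fold lower sum of this list stands beside the 8.39-fold and 9.05-fold of Fcer1a and Ms4a2. Mcpt1, at 379 and 286 FPKM, missed the cut-off, and Mrgprb2, at only 0.357 FPKM in WT, was listed at 0 in STAP-1 KO.

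Of 4 basophil markers, 3 were at least 2-fold lower, and their sum was 5366 FPKM in WT and 1248 FPKM in STAP-1 KO. Mcpt8, the basophil protease, stood at 2801 and 993 FPKM, and Cd200r3, a receptor of basophils and mast cells, at 549 and 30.3 FPKM. Cyp11a1 stood at 1945 and 168 FPKM. Prss34, the marker that missed the cut-off, named after its values were seen, stood at 71.1 and 56.7 FPKM, so that the 4 ranged from 1.25-fold to 18.1-fold lower values. The 10 neutrophil markers summed to 815 and 3483 FPKM, 4.27-fold higher in STAP-1 KO, although 5 were lower and 4 higher. Their median log2 ratio was -1.35, or -1.80 with the correction for GC content and transcript length. Those for the primary granule were higher (Mpo, 248 and 1973 FPKM, Elane, 112 and 823 FPKM, and Prtn3, 57.4 and 525 FPKM) and made up most of the sum in STAP-1 KO. Ngp of the secondary granule stood at 52.3 and 9.72 FPKM, and Ltf, Camp, S100a9 and Mmp8 were 3.46-fold to 7.68-fold lower.

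Monocyte and macrophage markers, the cells best known for Fcgr1 and Fcgr4, were divided. Of 10 genes, 7 had a mean of at least 1 FPKM, with 3 lower, 3 higher and 1 neither, and a median log2 ratio of -0.08, or 0.24 with the correction for GC content and transcript length. Those lower were Emr1, encoding the macrophage antigen F4/80, at 30.7 and 4.34 FPKM, the chemokine receptor Ccr2, at 41.8 and 10.3 FPKM, and the lysosomal protein Cd68, at 95.7 and 26.3 FPKM. Lyz2, the lysozyme of myeloid cells, was 1 of those higher, at 35.2 and 92.0 FPKM, and its log2 ratio went from 1.38 to 0.92 with the correction, short of 2-fold. Of 5 dendritic cell markers, 4 were of that level and all 4 were lower. Itgax stood at 2.97 and 0.375 FPKM, Xcr1 at 6.85 and 1.958 FPKM, Clec9a at 1.60 and 0.558 FPKM, and Zbtb46, a transcription factor of these cells, at 7.15 and 2.66 FPKM. Zbtb46 went from a log2 ratio of -1.39 to -0.88 with the correction, short of 2-fold. Among the B cell markers, only Cd79b reached a mean of 1 FPKM.

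The transcripts nearest to Fcer1a in level over both libraries were Serpinb1a, a protease inhibitor, at 1549 FPKM in WT and 232 FPKM in STAP-1 KO, Cyp11a1, an enzyme of steroid synthesis, at 1945 and 168 FPKM, and Lilrb4. Only these 3 genes lay within 0.5 of Fcer1a on the log2 scale, taking both libraries together. Nearest to Ms4a2 were Iqgap1, at 156 and 19.0 FPKM, Phlda1, at 145 and 20.04 FPKM, and Papss2, at 192 and 19.9 FPKM. Within the same distance of Ms4a2 lay 11 genes. Likeness over 2 libraries describes level and ratio only.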

How the data were processed

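RNA of sorted GFP+ CD45.2+ LSK cells was amplified with the SMART-Seq v4 kit, made into Nextera XT libraries, which do not mark strand, and sequenced as single 75-base reads. The authors aligned them to mm10 with TopHat 2.0.13 and Bowtie2 2.2.3 and deposited FPKM per gene from Cuffnorm (Cufflinks 2.2.1). The annotation and the scaling between libraries are not given in the sources used here. FPKM are not counts, so no count test was run.

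Analysed here was 1 library per genotype. Genes were compared where both libraries had at least 0.1 FPKM, and called at a 2-fold ratio without pseudocount. Log2 ratios used a pseudocount of 0.1 FPKM. Depth was estimated from the steps of low FPKM values: 47.5% of 284 values in WT and 47.9% of 351 in STAP-1 KO lay within 0.01 of a whole read. Reads per gene were estimated with the shortest coding transcript of GENCODE M21. The 95% intervals were exact (Clopper-Pearson) for single genes and normal on the log scale for ratios of chains, and cover counting error only. Of the symbols, 20911 matched the annotation as written, 1915 by an older symbol and 458 did not. Promoter windows came from RefSeq (GRCm38.p6).

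The members and the 17 gene lists were chosen with earlier results of these data known. Named were all members, at most 4 genes per list past the cut-off (those whose log2 ratio with 1 FPKM added was farthest from 0), Lyn, Syk, Inpp5d, Tyrobp, Kit and Stap1, and the 3 genes nearest to Fcer1a and Ms4a2. Clec12a, Mcpt1, Mrgprb2, Prss34, Csf1r, Cd14, Ltf, Camp, S100a9, Mmp8 and the sex-linked genes fall outside this rule and were named after their values were seen. Alternatives changed pseudocount, floor, cut-off, scaling, the activating chains summed, and a correction for GC content and transcript length in 20 bins of each. Scripts ran in Python 3.11.15 with scipy 1.17.1 and were tested on simulated data.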

Additional observations from a re-analysis of the deposited data

How the results depend on the processing

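Of 42 log2 ratios of single members under other pseudocounts, scalings and a correction for GC content and transcript length, 36 stayed within the counting interval and in the same direction, 5 left the interval in the same direction, and 1 reversed within its wide interval, that of Fcgr4, at -0.25 with the correction. Ranges were -3.71 to -3.01 for Fcer1a, -3.74 to -3.11 for Ms4a2, -2.50 to -2.00 for Fcer1g, -1.47 to -0.99 for Fcgr3, 0.62 to 0.75 for Fcgr2b and 0.95 to 3.996 for Fcgr1. The count of 4 members at least 2-fold lower became 3 with upper-quartile scaling, at a 4-fold cut-off and with Fcgr2b and Fcgr3 summed. With no floor, 1 of 7 members, Fcgr1, was at least 2-fold higher. The length and GC correction moved the change of the γ to α ratio to 1.21 and that of the activating to inhibitory ratio to -2.18. The latter was 0.73 for Fcgr1 and Fcgr4 without Fcgr3 and, in a setting chosen after seeing the data, -0.32 for Fcgr4 alone. The causes were not tested. No paired analysis was possible because 1 library per genotype was analysed, and no library could be left out. Depth limits Fcgr1, Fcgr4 and Fcer2a, and 1 library a genotype limits every value.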

Other observations

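Immunoglobulin receptors outside the members were mostly scarce. Of 12 such genes, 3 had a mean of at least 1 FPKM, 2 of them at least 2-fold lower in STAP-1 KO CML LSCs and 1 neither. Lgals3, encoding galectin-3, a lectin that also binds IgE, stood at 408 FPKM in WT and 34.8 FPKM in STAP-1 KO. Fcgrt, encoding the neonatal Fc receptor that recycles IgG, stood at 3.40 and 1.31 FPKM. Of 8 other ITAM or related adaptors, 5 had a mean of at least 1 FPKM, 2 of them lower, 2 higher and 1 neither. Besides Tyrobp, Hcst, the DAP10 adaptor, was lower, at 79.3 and 37.6 FPKM, while Cd3g and Cd79b were higher, at 1.80 and 5.04 FPKM and at 3.10 and 17.8 FPKM. The log2 ratio of Cd3g was 1.44, and 0.87 with the correction for GC content and transcript length, which is short of 2-fold.

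Among the remaining cell markers, counts are read against the 22.4% of all genes of this level that were at least 2-fold lower and the 11.5% higher. Of 5 eosinophil markers, 3 had a mean of at least 1 FPKM, and Prg2 and Epx of the eosinophil granule were higher, at 2.12 and 61.7 FPKM and at 1.02 and 8.62 FPKM, while Siglec5 was lower, at 27.9 and 11.4 FPKM. Of 5 erythroid markers, 2 were lower, 0 higher and 3 neither, and the lower ones were Car1, at 250.2 and 88.4 FPKM, and Alas2, at 100.3 and 32.8 FPKM. Of 5 megakaryocyte markers, 1 was lower (Itga2b, 123 and 32.5 FPKM), 1 higher (Ppbp, 5.05 and 18.0 FPKM) and 3 neither. Of 6 T and NK cell markers, 2 had a mean of at least 1 FPKM, 1 of them higher and 1 neither. Of 8 LSK and stem cell markers, 7 had a mean of at least 1 FPKM, 3 of them lower, 1 higher and 3 neither, and the lower ones were Kit, Ly6a and Mecom, the last at 4.08 and 1.56 FPKM, while Slamf1 was higher, at 3.39 and 8.67 FPKM. The log2 ratio of Mecom was -1.33, and -0.81 with the correction, short of 2-fold.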
